A study of Homo sapiens with 15 samples.

Results

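The comparison described here sets the H1 cultures of day 20 against the undifferentiated H1 cells of day 0, the ends of a laminin-based cardiac differentiation. It comprised the 3 day 0 and the 3 day 20 libraries, 6 of the 15 bulk RNA-seq libraries of the series, and the 21988 of 48777 listed genes that passed a filter on low counts. H1 is an established human embryonic stem cell line. The cells were kept in Nutristem medium, seeded on a mixture of laminins LN-521 and LN-221, exposed to the GSK3 inhibitor CHIR99021 once confluent at day 4, and treated with the Wnt inhibitor IWP2 from day 7. The protocol texts differ in the days they give for these compounds and in the B27 supplement used from day 11, so only the days of the more detailed text are given. Day 0 cells had received none of these compounds, and day 20 cells had received all of them. All libraries thus came from 1 line, and the cultures were not sorted, so each library is an average over whatever cells a well held. The labels give both laminins for every day, whereas the deposited sample table lists only LN-521 for day 0, so the day and the matrix may not be separable.

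Human embryonic stem cells keep themselves undifferentiated with a small circuit of transcription factors around OCT4, SOX2 and NANOG, and they grow as a tight epithelium that divides rapidly. Activating and then blocking Wnt signalling drives such cells through mesoderm towards the heart, where NKX2-5, GATA and TBX factors switch on the proteins of the sarcomere, the contractile unit of muscle. Directed cultures of this kind also hold cells that did not become heart muscle. Fibroblast-like mesenchyme is recognised by collagens and small proteoglycans, and endoderm of the yolk sac or liver type by alpha-fetoprotein, apolipoproteins and fibrinogens. In bulk RNA, fewer cells of a type and less RNA per cell cannot be told apart.

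Library totals ran from 11990302 to 33469703 counted reads. Within a day, the log2 CPM (library-scaled counts) of the genes tested correlated across genes with r between 0.98 and 0.99 on day 0 and between 0.91 and 0.96 on day 20 (genes are not independent replicates). Among genes of at least 100 CPM, 275 of 2139 differed more than 4-fold between day 20 libraries, against 13 of 2434 between day 0 libraries. Day 20 replicate 2 stood apart in RNA integrity (score 6.1, against 8.8 to 10 in the other 5 libraries) and in reads on genes that were silent earlier. Of 174 autosomal protein-coding genes of at least 2 kb with at most 2 counts in total over the 12 libraries of days 0 to 11, all were counted in this library, at a median of 10.95 reads per kb and 2.79 TPM (5th to 95th percentile 0.78 to 5.66 TPM). The medians were 0 TPM in replicate 1 and 0.15 TPM in replicate 3. Scaled to all genes, that level corresponds to 9.05% of the counts of replicate 2 and 0.48% of those of replicate 3, and values of replicate 2 at or under 5.66 TPM are not distinguished from it. In day 0 replicate 3, 35% of reads were uniquely mapped, against 57% to 86% in the others, and transcripts under 200 bases took 29.2% of its TPM, against 5.66% to 8.598% in the other 5 libraries. Sequencing lane was shared by only 1 library of each day, so no comparison within a lane could be tested, and replicates 1 and 2 of day 20 both carry plate 2 in their labels. Whether they are independent cultures beyond that is not stated, so p-values measure the spread between these libraries. In the lane shared by both days, 6026 of the 6027 calls below had the same direction. This does not test the lane, because the libraries of that lane are among those that made the calls. For 5986 of the calls the libraries of the days did not overlap, which fixed the direction in advance.

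At an adjusted p-value under 0.05 by edgeR's quasi-likelihood test, 3536 genes (16.1% of those tested) rose from day 0 to day 20 and 2491 (11.3%) fell. The median log2 fold change over all genes tested was 0.11. For 10276 genes (46.7%) every day 20 library lay on one side of every day 0 library, above it for 5328 (24.2%) and below it for 4948 (22.5%). Of the genes called, 1068 rose and 216 fell by at least 16-fold, and 504 rose and 45 fell by at least 64-fold. Protein-coding genes gave 2819 rises and 2167 falls among 15627 tested. Long noncoding RNAs gave 512 rises and 145 falls among 3578, but without day 20 replicate 2 these were 539 and 536, and their median moved from 0.40 to −0.07. Over all genes, leaving that library out gave 4823 higher and 4170 lower of 23258 tested. This kept 3433 of the rises and 2431 of the falls and reversed none of the 6027 calls. Because the days did not overlap in 5986 of these calls, a reversal could hardly occur. Leaving out a day 0 library gave 1828 to 2040 rises and 1300 to 1457 falls, and with all 15 libraries and the lane in the fit there were 1608 rises and 1735 falls, so which direction held more genes depended on the fit.

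**Figure D1:**
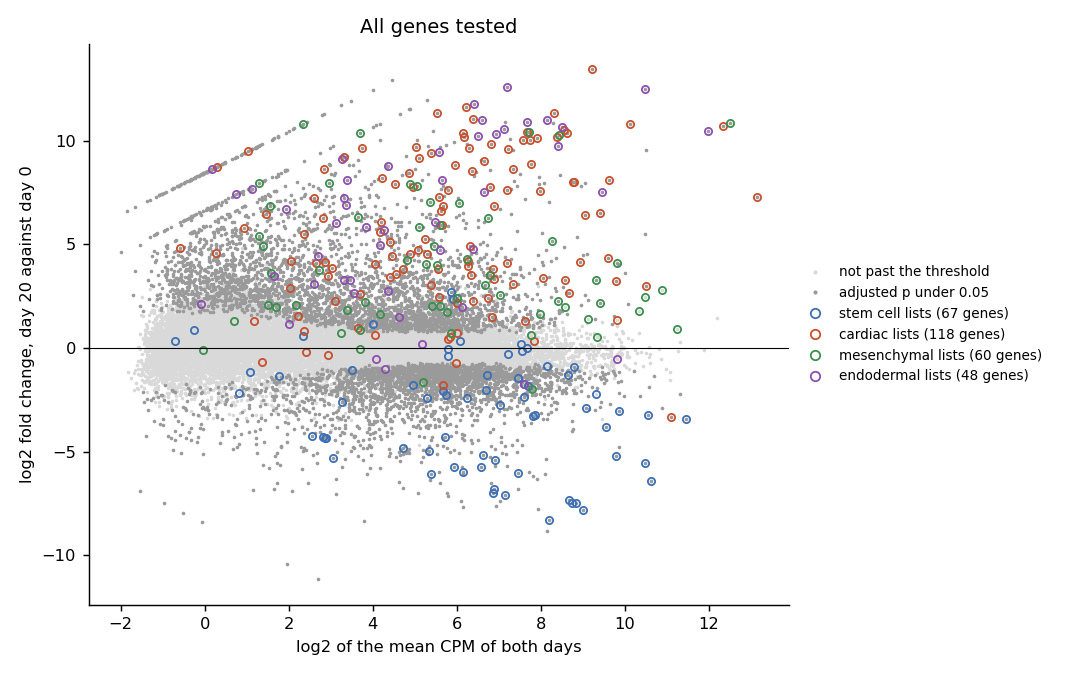
Log2 fold change from day 0 to day 20 (vertical axis) against the log2 mean CPM of both days (horizontal axis) for the 21988 genes tested, one point per gene, darker where the adjusted p-value was under 0.05. Open circles mark the gene lists: the 67 stem cell genes lie mostly below 0 and the 118 cardiac and 48 endodermal genes mostly far above it.

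Among genes past the threshold, whose days did not overlap and whose higher day averaged 10 CPM or more, the largest rise with reads on both days was in MYH7 (chr14:23412740-23435660 in GRCh38, minus strand), the slow or beta cardiac myosin heavy chain. Its TPM was 0.095, 0.020 and 0.085 on day 0 and 1441, 683 and 336 on day 20, a log2 fold change of 13.43 ± 0.98 (SE, n = 3 per day). Next came APOA4, an apolipoprotein of gut and liver (12.58 ± 2.09), and SERPINA1, the liver's alpha-1 antitrypsin (12.47 ± 1.67). TRIM63, a ubiquitin ligase of muscle, had no read in any day 0 library and 105, 93.6 and 23.6 TPM on day 20, so it was at least 1101-fold higher, taking 3 counts over the 3 day 0 libraries as the floor. By the same bound TM4SF4, a membrane protein of liver and gut epithelium, was at least 850-fold higher, HOXB4, a homeobox gene of posterior identity, at least 464-fold and CCN4, a matricellular protein, at least 394-fold. Other genes of this group encode muscle proteins, namely MYOZ2 (11.60 ± 0.98), PPP1R3A (11.53 ± 1.07), MLIP (11.51 ± 0.88), SMPX (11.34 ± 0.97) and MYL3 (11.32 ± 0.74). The noncoding genes that rose most were HAND2-AS1 (11.95 ± 0.67), LINC00881 (10.04 ± 0.85), GATA6-AS1 (8.81 ± 0.76), LINC00261 (8.81 ± 0.85) and MIR122HG, the transcript that carries a liver microRNA, which was at least 240.6-fold higher. Adjusted p-values by edgeR for the genes of this paragraph lay between 0.000128 and 0.00868.

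The most abundant transcripts of the 2 ends overlapped in part. Of the 15 genes with the highest mean TPM on each day, leaving out transcripts under 200 bases, 6 were the same: the signal recognition particle RNA RN7SL2, the small nucleolar RNAs SNORA73B and SNORD17, the elongation factor EEF2, the glycolytic enzyme GAPDH and the ribosomal protein RPS12. These 6 did not pass the threshold. Of the day 0 set, 5 genes fell. GJA1 (a connexin of gap junctions) ranked 3 on day 0 with 5590, 4106 and 4382 TPM and had 276, 600 and 785 TPM on day 20 (log2 fold change −3.33 ± 0.49, edgeR adjusted p = 0.00265). CD24, a surface protein of stem cells and many epithelia, went from 3725, 3248 and 2472 to 578, 126 and 394 TPM (−3.25 ± 0.64), and the architectural chromatin protein HMGA1 from 2417, 2883 and 2241 to 433, 298 and 354 TPM (−3.02 ± 0.38). PODXL, the sialomucin podocalyxin, fell by 3.42 ± 1.03 and the linker histone H1-5 by 2.07 ± 0.43 on the log2 scale.

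On day 20, AFP (alpha-fetoprotein, the main serum protein of the embryo) was the gene with the highest mean TPM, and MYH6, MYL7 and COL3A1 ranked 3, 4 and 5. These 4 were the only ones of the day 20 set past the threshold, and on day 0 they had ranked between 12249 and 15516. The other 11 of the set did not pass, among them the ferritin light chain FTL (0.52 ± 0.80), the nuclear noncoding RNA MALAT1 (1.47 ± 0.53) and thymosin TMSB10 (0.26 ± 0.50). The 15 genes together took 9.16%, 4.13% and 8.30% of all TPM in day 20 replicates 1 to 3. Of the 100 most abundant genes of each day 58 were shared. Of the 100 of day 0, 44 fell and 56 did not pass, and of the 100 of day 20, 29 rose and 8 fell.

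**Figure D2:**
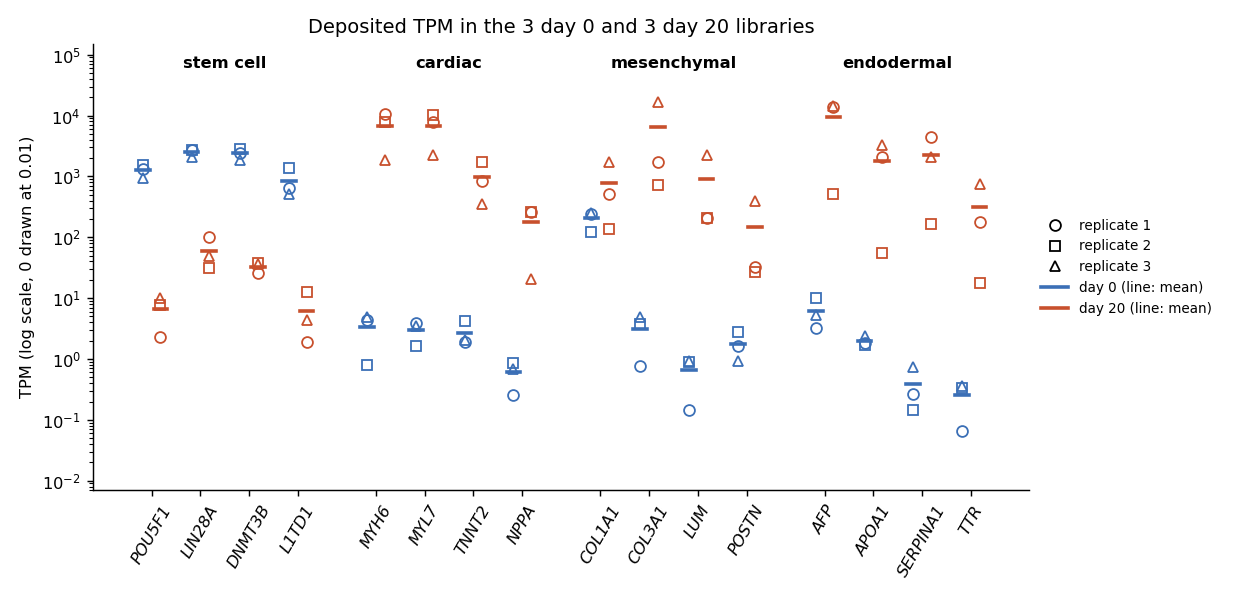
Deposited TPM (log scale) of 16 genes in each of the 3 day 0 and 3 day 20 libraries, with a symbol for each replicate and a line at the mean of the day. The 3 libraries of a day lie apart from those of the other day for every gene except COL1A1, and day 20 replicate 2 lies lowest for the 4 endodermal genes.

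The stem cell programme fell across its transcription factors. All 12 pluripotency factors tested fell, with a median log2 fold change of −5.86, and in each the 3 day 20 libraries lay below the 3 day 0 libraries. POU5F1 (OCT4; chr6:31164337-31180731, minus strand) had 1348, 1555 and 931 TPM on day 0 and 2.29, 7.70 and 9.98 TPM on day 20, a fall of 7.83 ± 0.66 on the log2 scale with a 95% interval of −9.34 to −6.32 (edgeR adjusted p = 0.000336). SOX2 (chr3:181711925-181714436, plus strand), its partner on DNA, went from 1022, 695 and 775 TPM to 0.32, 9.23 and 1.34 TPM (−8.31 ± 1.06). NANOG, also of the core circuit, was far less abundant at the start, with 39.2, 92.6 and 27.0 TPM against 0.060, 3.92 and 2.498 TPM on day 20 (−4.95 ± 1.03). PRDM14, a repressor of differentiation genes, had no read in day 20 replicate 1 (−6.97 ± 1.23).

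The smallest change among the factors was in SALL4, a zinc finger protein that fetal tissues keep for longer. It had 422, 362 and 324 TPM on day 0 and still 55.9, 31.9 and 46.8 TPM on day 20 (−3.24 ± 0.38), well above the silent-gene level of each library. Of the 12 factors, 3, 5 and 3 lay at or under the 95th percentile of the silent genes in day 20 replicates 1 to 3. Replicate 2 had the highest value of the day for 9 of the 12, and without it the median change was −7.50 in place of −5.86.

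The 250 bases before the start of NANOG and of SOX2 are shown as those of core factors that fell together: each window holds the letters TTTGCAT, part of the octamer that OCT4 binds, in capitals (positions −120 to −114 of NANOG and, on the opposite strand, −100 to −94 of SOX2). The sequences are RefSeq's for GRCh38.p14, chr12:7789152-7789401 (plus strand) and chr3:181711675-181711924 (plus strand). Searched on both strands, these letters occur in 3.94% of 35116 promoter windows of that length, and a match describes letters only, not a bound site.
NANOG: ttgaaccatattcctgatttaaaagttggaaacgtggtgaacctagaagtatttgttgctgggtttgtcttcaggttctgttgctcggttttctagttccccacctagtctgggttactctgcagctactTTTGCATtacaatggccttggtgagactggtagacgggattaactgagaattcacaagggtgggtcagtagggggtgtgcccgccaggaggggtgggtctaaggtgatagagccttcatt
SOX2: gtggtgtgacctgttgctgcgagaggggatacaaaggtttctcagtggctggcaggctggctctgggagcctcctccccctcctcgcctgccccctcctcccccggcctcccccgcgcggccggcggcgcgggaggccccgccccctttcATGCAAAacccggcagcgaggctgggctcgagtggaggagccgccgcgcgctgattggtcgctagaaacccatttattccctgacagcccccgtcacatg

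Genes that keep stem cell RNA and chromatin in their state fell less evenly. Among 12 stem cell RNA-binding and fetal regulators tested, 9 fell and 3 did not pass. LIN28A, which blocks maturation of let-7 microRNAs, fell from 2677, 2729 and 2092 TPM to 101, 31.7 and 48.5 TPM (−5.55 ± 0.62), whereas its paralogue LIN28B fell by 2.34 ± 0.49. L1TD1 (−7.47 ± 0.76) and DPPA4 (−7.31 ± 0.63), both largely restricted to pluripotent and germ cells, were among the 15 largest falls. IGF2BP1, an mRNA-binding protein of fetal tissues, still had 112, 112 and 95.3 TPM on day 20 against 217, 247 and 196 TPM on day 0 (−1.30 ± 0.28). 

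Of the DNA methylation enzymes, 3 of 8 tested fell and 1 rose, beside 11.3% and 16.1% of all genes tested. The de novo methyltransferase DNMT3B had 2468, 2826 and 1867 TPM on day 0 and 25.6, 37.5 and 36.0 TPM on day 20 (−6.43 ± 0.42). The maintenance enzyme DNMT1 (−1.43 ± 0.30) and its cofactor UHRF1 (−2.07 ± 0.63) fell, but with the silent-gene level subtracted UHRF1 did not pass (edgeR adjusted p = 0.0659), which leaves 2 falls. TET2, which oxidises methylcytosine, rose by 2.37 ± 0.32, and TET1 did not pass (−0.84 ± 0.29).

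Among the 12 genes of the Nodal pathway, 4 fell and 1 rose, beside 11.3% and 16.1% of all genes tested. Those that fell were the coreceptor TDGF1 (−7.49 ± 0.61), the ligand GDF3 (−5.32 ± 0.78), the nuclear partner FOXH1 (−4.28 ± 0.47) and the receptor ACVR2B (−0.92 ± 0.27). The signal transducer SMAD3 was the one that rose (2.71 ± 0.45). NODAL itself was low throughout, with 2.64, 14.5 and 1.67 TPM on day 0 and 1.62, 7.98 and 1.46 TPM on day 20, and did not pass.

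A list of epithelial and surface genes of stem cells, which also held others such as TERF1 and PHC1, gave 18 falls among 23 tested. Some of its genes kept considerable levels. SCNN1A, a sodium channel subunit, fell from 135, 100 and 112 to 2.25, 6.94 and 3.02 TPM (−5.18 ± 0.40) and the telomere protein TERF1 from 767, 712 and 599 to 14.2, 30.3 and 23.1 TPM (−5.23 ± 0.39). CLDN6, a claudin of embryonic epithelia, still had 471, 336 and 151 TPM (−2.87 ± 0.46). EPCAM and CDH1, the epithelial adhesion proteins, did not pass with all 6 libraries (−1.74 ± 0.70 and −2.24 ± 0.89, edgeR adjusted p = 0.0997 and 0.0967), although the day 20 libraries lay below those of day 0. Their day 20 TPM was 235, 29.4 and 152 for EPCAM and 108, 17.8 and 287 for CDH1, and without replicate 2, the lowest, both passed (−1.24 and −1.70, adjusted p = 0.0126 and 0.0267). Epithelia of endoderm also express both genes, and the yolk sac and liver genes described further on were likewise lowest in replicate 2; their part in this was not tested.

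What remained of stem cell RNA on day 20 was measured as the normalised CPM of each gene in each day 20 library, in percent of its day 0 mean. Over all 67 stem cell genes tested, the median residues were 11.7%, 8.04% and 15.5% in replicates 1 to 3, and 17, 14 and 13 genes stood over 50%. Of the 67, 2 rose, and the highest values were 615%, 575% and 1020%, so these medians do not measure retained stem cell RNA alone. Over the 46 that fell, which were chosen for being lower, the medians were 2.04%, 5.01% and 3.28%. Replicate 2 was thus the lowest library over all 67 genes and the highest over the 46. Residues under 1% were found for 19, 5 and 12 of the 46. POU5F1 stood at 0.17%, 0.41% and 0.74%, SOX2 at 0.035%, 0.76% and 0.15%, and TDGF1 at 0.50%, 0.87% and 0.29%. The order of the libraries differed between genes: LIN28A was highest in replicate 1 (3.70%, 0.87% and 1.83%), whereas NANOG stood at 0.11%, 5.15% and 4.53%. After subtraction of the silent-gene level from every gene, the 5.01% of replicate 2 became 3.50% and its NANOG value 1.88%, with 2.05% and 3.13% for the medians of the other 2 libraries. Between 4 and 10 of the 46 genes lay at or under the 95th percentile of the silent genes in a library, the 10 in replicate 2. A residue does not distinguish a few remaining stem cells from a low level in many cells, or from expression in differentiated cells.

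**Figure D3:**
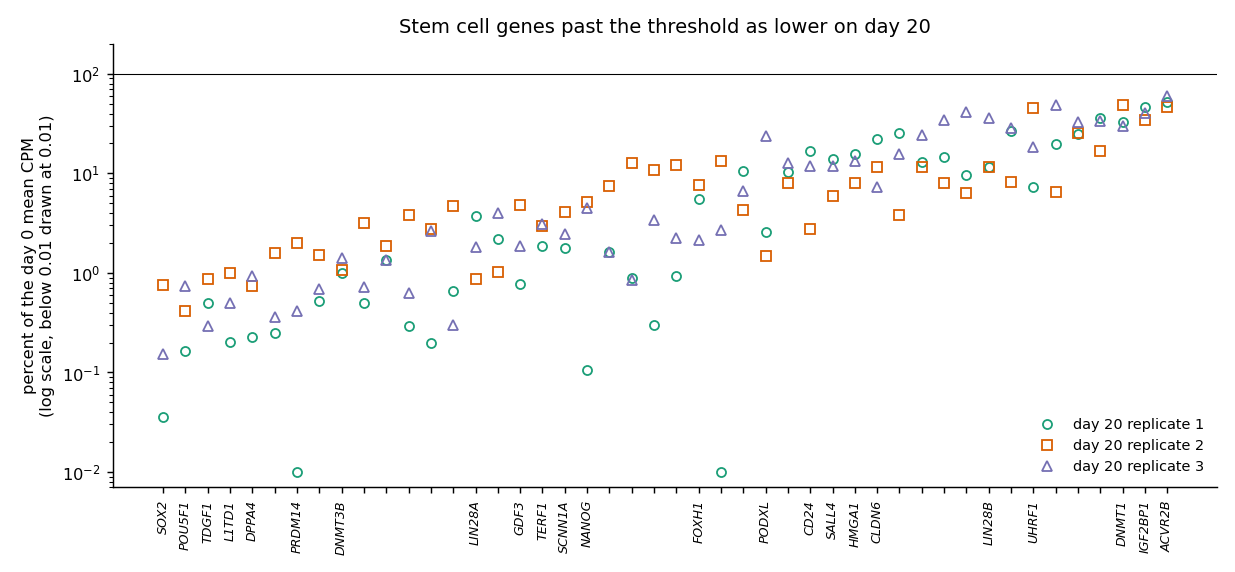
Normalised CPM in each day 20 library as a percent of the day 0 mean (log scale) for the 46 stem cell genes that fell, ordered by their mean, with genes named in the text labelled and values below 0.01% drawn at 0.01%. SOX2 and POU5F1 stand under 1% in all 3 libraries at the left, and ACVR2B and IGF2BP1 keep the largest residues at the right.

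The microRNA genes of stem cells fell with the factors. MicroRNAs are short RNAs that silence messengers through bases 2 to 8 of the mature strand, the seed, and the miR-302/367 cluster is the best known set of pluripotent cells. These libraries of total RNA count reads on the hairpin genes and do not measure the mature strands. Of the 44 hairpin genes tested, 11 fell and 33 did not pass, beside falls in 11.3% of all genes tested. MIR302C had 939, 710 and 305 counts on day 0 and 2, 2 and 1 on day 20 (−8.32 ± 0.44), and MIR302A 636, 437 and 176 against 5, 2 and 1 (−7.04 ± 0.55). MIR302D and MIR367 had no read on day 20, and were at least 260.6-fold and 154-fold lower. The long transcript of the cluster, MIR302CHG, fell from 61.3, 44.8 and 58.6 to 0.43, 4.12 and 1.51 TPM (−5.17 ± 0.67).

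A second group of hairpins that fell, MIR25, MIR93 and MIR106B, lies inside MCM7, a replication helicase gene that fell by 2.27 ± 0.35 and is on the same strand. MIR25 had 83, 91 and 27 counts on day 0 and 10, 14 and 9 on day 20. The mature sequences of both groups are shown because they share seeds, given in capitals (RefSeq, GRCh38.p14). The 3 miR-302 strands shown carry the same seed, miR-367-3p shares its seed with miR-25-3p, and miR-93-5p shares its seed with miR-106b-5p.
miR-302a-3p: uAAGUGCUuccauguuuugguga
miR-302c-3p: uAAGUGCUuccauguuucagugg
miR-302d-3p: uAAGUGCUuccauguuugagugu
miR-367-3p: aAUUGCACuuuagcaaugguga
miR-25-3p: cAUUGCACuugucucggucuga
miR-93-5p: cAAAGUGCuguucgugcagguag
miR-106b-5p: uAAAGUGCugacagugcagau

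The cardiac programme rose in nearly every part. Over 8 cardiac lists, 101 of 118 genes tested rose, 1 fell and 16 did not pass, and their share of all TPM went from 0.722%, 0.547% and 0.565% on day 0 to 5.52%, 5.96% and 1.79% on day 20. All 12 thick filament genes rose, with a median log2 fold change of 9.63. MYH6 (chr14:23381982-23408273, minus strand), the fast or alpha heavy chain of atrial and early heart muscle, had 4.31, 0.80 and 4.92 TPM on day 0 and 10790, 7924 and 1877 TPM on day 20 (10.69 ± 1.20, edgeR adjusted p = 0.000901). MYL7, the atrial regulatory light chain, reached 7918, 10128 and 2267 TPM from 3.96, 1.65 and 3.54 TPM (10.81 ± 0.82). Its ventricular counterpart MYL2 reached only 63.8, 65.1 and 8.41 TPM (8.64 ± 1.12), so the atrial form stood far above the ventricular form in each library. The essential light chains MYL3 and MYL4 reached means of 2058 and 2081 TPM, and MYBPC3, which bridges thick and thin filaments, rose by 10.39 ± 0.93.

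The windows before the starts of MYH6 and MYL7, the 2 cardiac genes of highest TPM on day 20, are shown with the motif found in each in capitals. MYH6 (chr14:23408274-23408523, minus strand) holds TATAAA at −30 to −25, letters found in 10.7% of all windows. MYL7 (chr7:44141333-44141582, minus strand) holds a CArG box, the element bound by serum response factor, at −61 to −52, as 1.16% of windows do. Both are RefSeq sequences of GRCh38.p14, searched on both strands.
MYH6: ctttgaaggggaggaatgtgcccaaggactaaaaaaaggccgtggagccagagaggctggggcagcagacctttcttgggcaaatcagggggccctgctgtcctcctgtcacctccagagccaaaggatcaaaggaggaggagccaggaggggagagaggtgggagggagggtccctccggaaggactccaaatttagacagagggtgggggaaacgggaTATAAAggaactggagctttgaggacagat
MYL7: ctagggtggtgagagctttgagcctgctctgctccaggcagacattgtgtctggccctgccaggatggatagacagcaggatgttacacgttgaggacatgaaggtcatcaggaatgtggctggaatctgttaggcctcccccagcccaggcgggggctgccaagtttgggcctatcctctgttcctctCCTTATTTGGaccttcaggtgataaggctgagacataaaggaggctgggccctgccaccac

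Thin filament genes followed, with 9 rises among 12 tested. Cardiac troponin T, TNNT2, had 1.87, 4.24 and 2.06 TPM on day 0 and 838, 1745 and 353 TPM on day 20 (8.13 ± 0.71), and TNNC1, the calcium-binding troponin, 1778, 3526 and 571 TPM (7.56 ± 0.65). The slow skeletal isoform of troponin I, TNNI1, which the fetal heart uses, reached 744, 437 and 279 TPM (8.01 ± 0.55), whereas the adult cardiac isoform TNNI3 did not pass with 48.1, 46.5 and 11.4 TPM against 18.9, 10.1 and 15.5 TPM on day 0. ACTC1, the cardiac actin, rose by 6.50 ± 0.60, and the skeletal actin ACTA1 did not pass, at 217, 475 and 12.02 TPM on day 20. Of 16 genes of the Z-disc and intercalated disc, 15 rose, among them CSRP3 (11.04 ± 1.11), a stretch-sensing LIM protein, ANKRD1 (10.02 ± 1.03), a stress-responsive repeat protein, and ACTN2 (7.99 ± 0.79), the actinin of the Z-disc. The one that fell was GJA1, the connexin of both the stem cell epithelium and the intercalated disc, described above.

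Calcium handling and excitation were represented by 11 rises among 14 genes and 9 among 14. PLN, the inhibitor of the calcium pump of the sarcoplasmic reticulum, had 1.66, 0.78 and 0.64 TPM on day 0 and 1871, 2063 and 447 TPM on day 20 (10.16 ± 0.77). The calcium release channel RYR2 rose to 306, 299 and 78.3 TPM (4.15 ± 0.54) and the sodium-calcium exchanger SLC8A1 to 245, 338 and 61.4 TPM (6.42 ± 0.63). The pump itself, ATP2A2, did not pass (1.34 ± 0.51), having 123, 155 and 114 TPM already on day 0. CASQ2, the calcium store protein, had no read on day 0 and was at least 57.5-fold higher. Of the channels, KCNJ5 rose most (7.77 ± 0.80), and the pacemaker channel HCN4 rose to 118, 182 and 35.5 TPM (2.43 ± 0.49).

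All 19 cardiac transcription factors tested rose (1 further factor of the list, SHOX2, did not pass the filter on low counts). NKX2-5 had 0.28, 0.06 and 0.25 TPM on day 0 and 411, 318 and 135 TPM on day 20 (10.35 ± 0.71), and GATA4 0.16, 0.14 and 0.17 against 209, 124 and 103 TPM (9.64 ± 0.54). TBX5, a factor of the left ventricle and atria, rose by 9.72 ± 0.54, and HAND2 by 10.18 ± 0.54. HAND1 was among 3 factors of the list that stood highest in replicate 3, at 169, 201 and 500 TPM (8.83 ± 0.72). ISL1, a marker of earlier progenitors, rose only to 10.2, 9.82 and 13.9 TPM (4.20 ± 0.64). The median of the list was 7.60, or 7.21 with NR2F1, which had no read on day 0, set to its lower bound. Of the natriuretic peptides and other cardiac regulators, 13 of 14 rose, led by SMPX (11.34 ± 0.97). NPPA, the atrial natriuretic peptide, had 262, 260 and 20.2 TPM on day 20 (7.89 ± 1.08), and NPPB, the B-type peptide, 508, 99.6 and 42.7 TPM (8.19 ± 1.26). Energy genes of muscle gave 13 rises among 17, including the creatine kinase CKM at 1015, 594 and 122 TPM (9.85 ± 1.05) and myoglobin, MB, at 336, 122 and 79.03 TPM (7.30 ± 0.89).

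**Figure D4:**
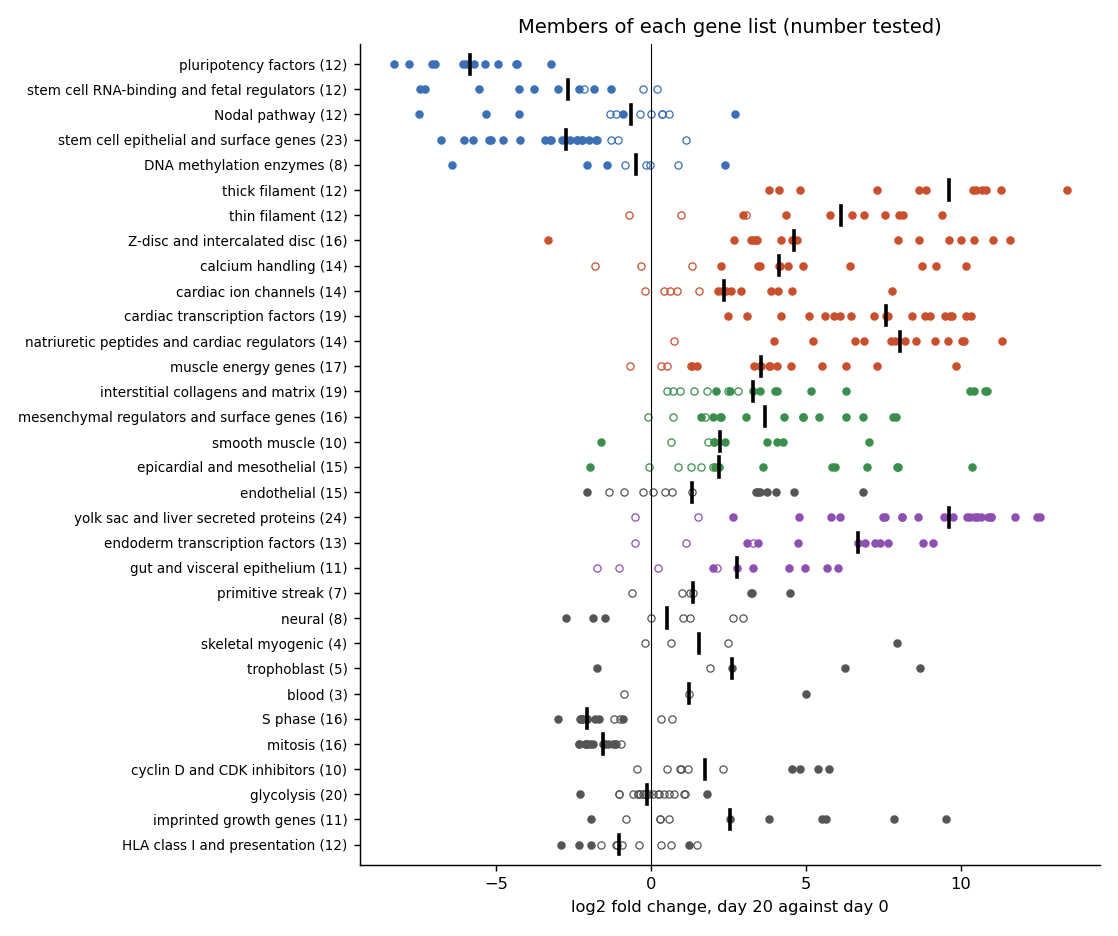
Log2 fold change from day 0 to day 20 (horizontal axis) of each tested member of 32 gene lists, filled where the edgeR adjusted p-value was under 0.05, with a bar at the median of the list and the number tested in brackets. The thick filament and yolk sac and liver lists have the medians furthest to the right (9.63 and 9.61) and the pluripotency factors the median furthest to the left (−5.86).

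The 3 day 20 libraries were not alike in their cardiac content. Summed over the thick filament list, TPM was 26611, 28021 and 6795 in replicates 1 to 3, against 10 to 19 on day 0. Replicate 3 was the lowest library for MYH6, MYH7, MYL7, TNNT2, PLN, CKM and TTN alike. In normalised CPM, replicate 1 was highest for 9 and replicate 2 for 3 of the 12 thick filament genes, and replicate 3 was highest for 1 of the 12 thin filament genes. Even so, every thick filament gene in replicate 3 stood above its 3 day 0 values.

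Mesenchymal genes rose as well, and most were highest in replicate 3, the library lowest in muscle genes. Over 4 lists, 41 of 60 genes tested rose and 2 fell, and their share of TPM went from 0.343%, 0.286% and 0.284% to 1.19%, 0.638% and 4.10%. Of 19 genes of the interstitial matrix, 12 rose and 18 were highest in replicate 3 by normalised CPM. COL3A1 (chr2:188974373-189012746, plus strand), the collagen of soft connective tissue, had 0.76, 3.76 and 4.81 TPM on day 0 and 1726, 723 and 17006 TPM on day 20 (10.84 ± 1.79, edgeR adjusted p = 0.00399). It did not pass with all 15 libraries and the lane in the fit (adjusted p = 0.0637), nor did LUM, DCN, POSTN or MGP (0.0746, 0.0899, 0.0776 and 0.0574). The small proteoglycans LUM and DCN reached 206, 206 and 2272 TPM (10.29 ± 1.53) and 8.57, 16.3 and 353 TPM (10.42 ± 1.96), and POSTN, periostin, 32.1, 26.5 and 388 TPM (6.28 ± 1.26). MGP, an inhibitor of calcification, had no read on day 0 and was at least 202-fold higher.

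The type I collagen chains did not pass with all 6 libraries. COL1A1 had 238, 120 and 253 TPM on day 0 and 518, 137 and 1705 TPM on day 20 (1.79 ± 0.88, adjusted p = 0.166), and COL1A2 196, 94.1 and 159 against 681, 89.0 and 2634 TPM (2.80 ± 1.07, adjusted p = 0.0857). In both the day 20 value of replicate 2 lay within the day 0 range or below it. Without that library both passed (2.31 and 3.36, adjusted p = 0.0165 and 0.00495), and 17 of the 19 matrix genes rose.

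Among 16 mesenchymal regulators and surface genes, 13 rose. The repressors ZEB1 (7.92 ± 0.35) and ZEB2 (7.81 ± 0.57), which shut down epithelial genes, reached 24.9, 38.5 and 25.2 TPM and 6.22, 18.2 and 14.6 TPM, with the highest value in replicate 2. SNAI2, a repressor of the same kind, was highest in replicate 3 (10.2, 20.3 and 98.4 TPM, 6.31 ± 1.03). The receptor PDGFRA rose to 41.8, 54.4 and 87.9 TPM (4.30 ± 0.41), and PDGFRB did not pass (1.74 ± 0.68). SNAI1 did not pass either (0.72 ± 0.61). Smooth muscle genes gave 7 rises and 1 fall among 10, with ACTA2 at 42.6, 130 and 169 TPM (7.05 ± 0.68) and the fall in the myosin kinase MYLK (−1.63 ± 0.28), while MYH11, the heavy chain that defines mature smooth muscle, stood at 1.56, 12.5 and 0.86 TPM and did not pass.

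Epicardial and mesothelial genes gave 9 rises and 1 fall among 15. TBX18, a factor of the epicardium and sinus horn, went from 0.017 TPM in 1 day 0 library and 0 in the others to 13.9, 15.95 and 9.73 TPM (10.35 ± 0.64). WT1 reached 4.58, 8.43 and 32.1 TPM (7.97 ± 1.28) and BNC1 19.4, 10.7 and 283 TPM (6.97 ± 1.45), both highest in replicate 3. PDPN, podoplanin, which stem cells also express, fell from 420, 274 and 327 to 61.0, 73.2 and 162 TPM (−1.99 ± 0.47). The keratins KRT18 and KRT19 did not pass and KRT8 did (2.18 ± 0.57). All 3 were lowest in replicate 2, and without it KRT18 and KRT19 passed as well (2.06 and 2.47, adjusted p = 0.00372 and 0.000708).

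The endodermal programme reached the levels of the sarcomere, but in 2 of the 3 libraries. Over 3 lists, 39 of 48 genes tested rose and 9 did not pass, while the share of TPM went from 0.264%, 0.215% and 0.225% on day 0 to 3.01%, 0.177% and 3.64% on day 20. AFP (chr4:73431138-73456174, plus strand) had 3.23, 10.1 and 5.22 TPM on day 0 and 13772, 516 and 14210 TPM on day 20 (10.45 ± 1.53, edgeR adjusted p = 0.00257). Replicate 2 was thus far below the other day 20 libraries, yet far above every day 0 library. The apolipoprotein APOA1 followed with 2080, 54.6 and 3315 TPM (9.76 ± 1.57), and the antitrypsin SERPINA1 with 4469, 163 and 2091 TPM.

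The window before the RefSeq start of AFP (GRCh38.p14, chr4:73435971-73436220, plus strand) is shown as that of the most abundant gene of day 20. It lies within the gene span given above, which is that of GENCODE 44 and begins further upstream. It holds TATAAA, in capitals, at −29 to −24.
AFP: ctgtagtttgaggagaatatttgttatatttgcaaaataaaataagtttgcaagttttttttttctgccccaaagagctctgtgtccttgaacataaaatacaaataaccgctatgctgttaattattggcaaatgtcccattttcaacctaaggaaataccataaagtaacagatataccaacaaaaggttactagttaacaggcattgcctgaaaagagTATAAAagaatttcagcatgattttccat

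Of 24 genes of yolk sac and liver, most of them for secreted proteins, 22 rose, with a median log2 fold change of 9.61. By normalised CPM 19 were highest in replicate 3 and 5 in replicate 1. ALB, albumin, was highest in replicate 1 (238, 14.6 and 76.6 TPM), whereas the transthyretin gene TTR (180, 17.8 and 751 TPM), APOA4 (446, 15.8 and 1802 TPM) and APOC3 (314, 4.42 and 2216 TPM) were highest in replicate 3. The fibrinogen chain FGB reached 918, 69.4 and 1437 TPM (10.97 ± 1.46). The exceptions were APOE, which stem cells already expressed at 2002, 1407 and 1695 TPM and which stood at 1790, 375 and 1805 TPM on day 20 (−0.52 ± 0.62), and APOC1 (1.52 ± 0.80), which passed without replicate 2 (2.05, adjusted p = 0.000865). Among the genes of at least 100 CPM on day 20, the 10 with the largest ratio between libraries were 9 genes of this list and S100A14, an epithelial calcium-binding protein (475, 10.8 and 643 TPM), and in each of them replicate 2 was lowest.

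Endoderm transcription factors gave 10 rises among 13 tested and were highest in replicate 1 for 12 of these 13. FOXA2 had 63.7, 12.5 and 14.8 TPM on day 20 (7.25 ± 1.03), HNF4A, a regulator of liver and gut epithelium, 32.9, 6.56 and 26.4 TPM (8.77 ± 1.06), and the hindgut factor CDX2 27.0, 12.9 and 17.4 TPM (9.09 ± 0.82). HHEX did not pass at 69.3, 9.59 and 6.85 TPM (3.29 ± 1.08). Of 11 gut and visceral epithelial genes tested 7 rose, including the brush border protein VIL1 (2.77 ± 0.61) and the vitamin B12 receptor CUBN at 6.82, 6.76 and 21.0 TPM (5.68 ± 0.69).

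**Figure D5:**
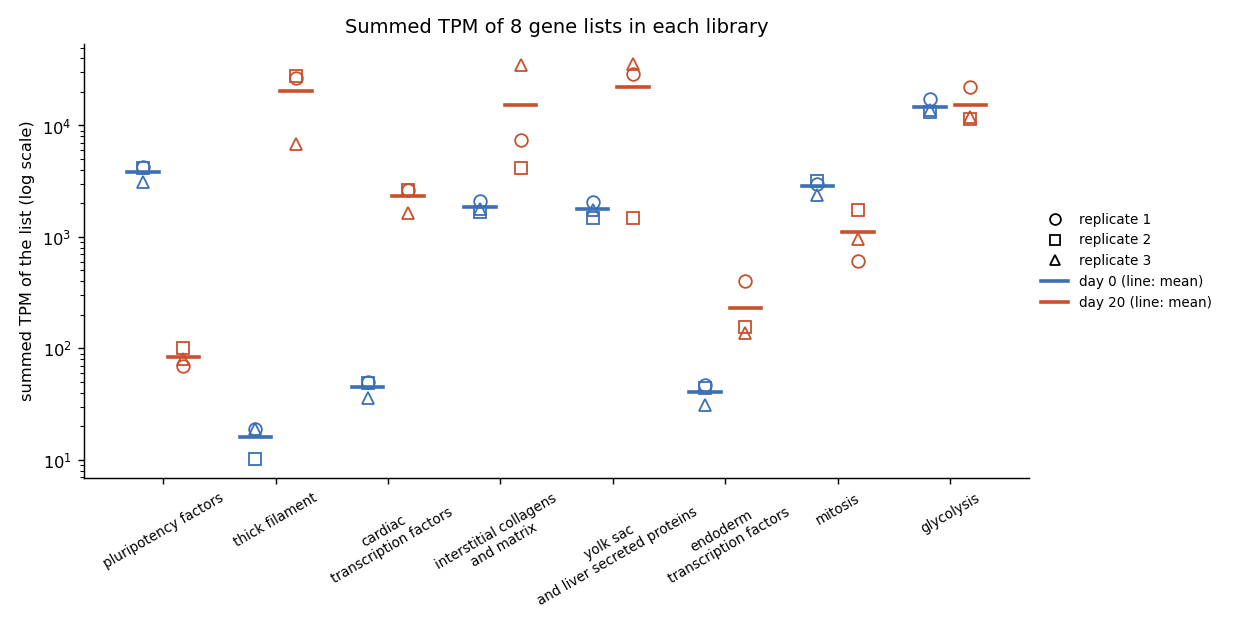
Summed TPM (log scale) of 8 gene lists in each of the 6 libraries, with a symbol for each replicate and a line at the mean of the day. On day 20 the thick filament sum is lowest in replicate 3, the matrix sum is highest there, and the yolk sac and liver sum of replicate 2 (1477) lies just below the lowest day 0 sum (1492), most of which is APOE.

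Cell cycle genes were lower at the end of the protocol. Of 16 S phase genes tested 12 fell and 4 did not pass (median −2.06), and of 16 genes of mitosis 13 fell and 3 did not pass (median −1.55). MCM5, a subunit of the replication helicase, fell from 163, 236 and 121 to 13.2, 50.6 and 18.7 TPM (−3.00 ± 0.45), and CCNB1, the mitotic cyclin B, from 369, 467 and 269 to 69.6, 133 and 104 TPM (−2.12 ± 0.30). The proliferation marker MKI67 did not pass (−1.53 ± 0.51, adjusted p = 0.0560), at 19.05, 83.1 and 23.9 TPM on day 20. By normalised CPM, replicate 2 was the highest day 20 library for 14 of the S phase and 12 of the mitosis genes. Without it 13 and all 16 fell, and with the silent-gene level subtracted 7 and 11 did. The inhibitor CDKN1A (p21) rose from 10.6, 8.71 and 10.1 to 525, 65.7 and 182 TPM (4.55 ± 0.80), CDKN2B rose by 5.74 ± 0.47, and CDKN1C passed only without replicate 2 (2.32 ± 0.92 with it, adjusted p = 0.0960, and 2.85 without, adjusted p = 0.00725).

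Exons of POU5F1, LIN28B, TDGF1, CDH1, CLDN6, MYH7, TTN, ACTC1, NPPA, TBX5, HAND2, COL1A1, APOA1 and APOA4 overlap those of a gene on the other strand, and whether the counting used strand is not given in the sources used here. MYH6 and MYH7, the actins, and genes with processed pseudogenes such as HMGA1, GAPDH and FTL have near-identical copies between which reads can be split, so their levels are less certain.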

How the data were processed

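RNA of H1 cells was sequenced after ribosomal depletion as stranded total RNA, 150-base paired-end. The authors aligned reads with STAR 2.5.2b to hg38, counted them with featureCounts 1.5.1 on Ensembl 79 genes, removed rRNA and mitochondrial genes, and deposited counts per gene and TPM computed from them. The deposited sample table also gave an RNA integrity score, a fraction of uniquely mapped reads and a lane per library. Whether the counting used strand is not given in the sources used here.

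From the deposited counts, genes were kept by edgeR's filterByExpr (minimum count 10, minimum total 15), scaled by TMM and compared between the 3 day 20 and 3 day 0 libraries with the robust quasi-likelihood test of edgeR 4.0.16 (R 4.3.3), two-sided, with Benjamini-Hochberg adjustment over 21988 genes and a threshold of 0.05. Values after ± are standard errors, obtained from the fold change and its F statistic. TPM are as deposited. DESeq2 1.42.0 and limma 3.58.1 served as alternatives. Symbols and coordinates came from GENCODE 44, which held 46872 of the 48777 identifiers. A per-length read level was estimated on silent genes and subtracted as an alternative. Counts were also simulated with the sizes and spread of the day 0 and day 20 libraries and the mean levels of day 0 (19550 genes). There edgeR recovered 37 of 100 genes changed 4-fold and 0 of 100 changed 2-fold, with 9.76% of 41 calls false. DESeq2 recovered 82 and 11 of these, with 27.9% of 129 calls false, and limma recovered 1 and 0, with 1 call. Only 200 genes were changed in that simulation, whereas 27.4% of genes were called in the data, so its recoveries do not carry over. In the data, 348 of the 6027 calls had an absolute log2 fold change under 1.

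The comparison and the 32 gene lists were chosen with earlier results of these data known. Of 458 listed genes 418 were tested. Genes named are list members, the 15 largest rises and 15 largest falls of at least 10 CPM (library-scaled counts) with days that did not overlap, the 5 largest noncoding changes, the 15 most abundant genes of each day, and the 10 with the largest ratio between day 20 libraries. Some genes that meet this rule are not reported here. The libraries are labelled as biological replicates. Totals ran from 11990302 to 33469703 counts, and precision also depended on the spread between the 3 libraries of a day. The floor of 3 counts covers counting error only.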

Additional observations from a re-analysis of the deposited data

How the results depend on the processing

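All 127 named genes past the threshold kept their direction under each of the 18 alternatives that gave a value for them. These alternatives reuse the same libraries, and in 5986 of the 6027 calls the days did not overlap, so a reversal could hardly occur. The 3536 rises and 2491 falls became 5426 and 4490 with all 15 libraries in one fit, 1795 and 1057 at an adjusted p under 0.01, and 4256 and 3185 with DESeq2. With the lane added to the fit of 15 libraries they were 1608 and 1735, and 27 named genes no longer passed (adjusted p = 0.0532 to 0.177): ACVR2B, ALB, APOA1, APOC3, B2M, BNC1, CASQ2, CCN4, CDH5, CDKN1A, COL3A1, CUBN, DCN, FGB, GDF3, HCN4, KRT8, LUM, MGP, MIR93, NPPA, NR2F1, PECAM1, POSTN, S100A14, UHRF1 and WT1. Leaving out 1 library gave 1828 to 4823 rises and 1300 to 4170 falls. The lowest counts came without a day 0 library (1828, 1857 and 2040 rises, 1300, 1359 and 1457 falls) and the highest without day 20 replicate 2. The cause was not tested. Without that library FTL, RN7SL2, HHEX, PDGFRB, SNAI1 and MKI67 also passed (adjusted p = 0.00736, 0.00835, 0.0267, 0.00779, 0.046 and 0.00433), and without replicate 3 ACTA1, ATP2A2 and MYH11 did (0.00683, 0.0211 and 0.0444). ACVR2B, KRT8 and MIR93 lost their call without either of several single libraries (adjusted p up to 0.159, 0.119 and 0.126), and so did PODXL, UHRF1 and B2M (up to 0.0981, 0.146 and 0.123). UHRF1 also lost it with the silent-gene level subtracted (0.0659). Without day 0 replicate 2, the calls of APOC3, BNC1, DCN, HCN4, LIN28B, MGP, CASQ2 and S100A14 missed the threshold (0.0503 to 0.0737), and IGF2BP1, PDPN, VIL1, PFKP and MIR25 missed it without day 0 replicate 3 (0.0744, 0.0649, 0.0708, 0.0794 and 0.0502).

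Some small changes turned. With 1 library left out, the Nodal list's median ran from −0.84 to 0.0028, the neural median from −0.90 to 0.62 and the glycolysis median from −0.78 to 0.21, the neural and glycolysis turns coming without day 20 replicate 2 and the Nodal turn without day 0 replicate 2. The neural median was −0.046 with limma on log2(TPM + 0.1). Among genes not past the threshold, leaving out 1 library gave −0.44 to 0.31 for EEF2, −0.77 to 0.050 for RPS12, −0.27 to 0.59 for GAPDH, −0.24 to 0.67 for TMSB10, −2.12 to 0.30 for NODAL and −0.20 to 0.43 for SNORD17. With the lane, NODAL became 0.39 and SNORD17 −0.00021, and with no filter SNORD17 became −0.056. The summed mean TPM of the 15 most abundant day 0 genes was 52342, or 61777 when TPM were recomputed without transcripts under 200 bases. The mean of the residual medians over the 46 stem cell genes that fell, a set chosen for being lower, was 3.44%, and 2.66% to 4.42% with 1 library left out, an alternative chosen after seeing the data. No paired analysis was possible because the day 0 labels carry numbers and the day 20 labels name plates (plate 2 for replicates 1 and 2), so nothing pairs them. With 3 libraries a day, a p that misses the threshold does not show that levels were alike.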

Other observations

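Some growth genes under parental imprinting rose sharply. Of 11 tested, 6 rose and 1 fell, with a median log2 fold change of 2.54, beside 16.1% and 11.3% of all genes tested. With the silent-gene level subtracted there were 5 rises and 2 falls among 10 (median 1.63). IGF2, the fetal growth factor, had 1.36, 1.41 and 2.95 TPM on day 0 and rose by 9.53 ± 1.33 (edgeR adjusted p = 0.00213). The neighbouring noncoding gene H19 rose by 7.83 ± 1.12, and DLK1, a membrane ligand of fetal tissues, from 4.83, 1.54 and 6.65 to 192, 50.7 and 493 TPM (5.65 ± 1.04). All 3 were lowest in replicate 2 and highest in replicate 3 on day 20. NNAT, a small membrane protein of the embryonic nervous system, fell from 165, 117 and 117 to 31.4, 44.8 and 46.9 TPM (−1.94 ± 0.29).

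Of 12 genes of antigen presentation tested, 1 rose and 3 fell, beside 16.1% and 11.3% of all genes tested. So few calls do not set the list apart from all genes. B2M, the shared light chain of class I molecules, rose from 82.7, 58.4 and 61.7 to 182, 168 and 206 TPM (1.23 ± 0.29, edgeR adjusted p = 0.0157). The peptide transporter TAP1 fell by 2.34 ± 0.33 and the immunoproteasome subunit PSMB8 by 2.91 ± 0.47 on the log2 scale. Of the 12 genes tested 8 did not pass.

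Endothelial genes gave 7 rises and 1 fall among 15, at low levels (median 1.31), beside 16.1% and 11.3% of all genes tested. With the silent-gene level subtracted there were 5 rises and 2 falls among 14 (median 0.47), and the median was 0.43 without day 20 replicate 2. CDH5, the cadherin of vessel walls, reached 8.04, 5.89 and 3.35 TPM (4.61 ± 0.71), and PECAM1, an adhesion protein of the same cells, 2.70, 4.17 and 2.26 TPM (4.04 ± 0.55), so in replicate 2 PECAM1 lay under the 5.66 TPM that marks the 95th percentile of its silent genes. FLT1, a receptor for vascular growth factors that stem cells also expressed, fell from 108, 104 and 85.0 to 21.1, 32.3 and 31.3 TPM (−2.06 ± 0.28). Of the neural genes 8 of 12 were tested, of which 3 fell and 5 did not pass, beside falls in 11.3% of all genes tested. Of 20 glycolysis genes, 18 did not pass, where 27.4% of all genes tested passed in either direction. By normalised CPM 19 of the 20 were highest in replicate 1. The lactate transporter SLC16A1 fell by 2.31 ± 0.37 and the phosphofructokinase PFKP rose by 1.79 ± 0.35 on the log2 scale.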
